A study of Mus musculus with 22 samples.

Results

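Fibronectin and 9 secreted matricellular proteins were followed through the sorted stroma of a mouse mammary tumor. The 10 genes were chosen by name, as members of 5 protein families, out of 41388 genes with a deposited count, and all 10 were among the 15018 genes tested. They are *Postn* (periostin) and *Tgfbi* (TGF-beta-induced protein), which share fasciclin domains, *Tnc* and *Tnxb* (tenascins C and XB), *Sparc* and *Sparcl1* (hevin), *Thbs1*, *Thbs2* and *Thbs3* (thrombospondins), and *Fn1* (fibronectin).

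Tumors grew in C57BL/6 mice given as postnatal day 56, and the stroma was sorted by 2 marks into Osx+ CD45-, Osx- CD45-, Osx+ CD45+ and Osx- CD45+ cells. Osx+ stands for TdTomato fluorescence from the Ai9 reporter, switched on by a Cre whose tet-off transgene is driven by the promoter of *Sp7* (Osterix), so it records that a cell or its ancestor used that promoter and not that *Sp7* is expressed. Doxycycline in the diet holds this Cre off. The paper states that mice fed it until weaning served all studies after its first, and its account of the RNA sequencing does not name the diet. CD45, encoded by *Ptprc*, is the surface phosphatase of leukocytes. The wild type mice carried Osx-cre and Ai9, 4 of them were inoculated, and the Cdh2-cKO mice carried Ai9 and a conditional knockout of *Cdh2* (N-cadherin) whose Cre the labels do not name, 6 of them inoculated. Each genotype has 2 libraries of Osx+ CD45- cells and 3 of every other population, 22 in all, from preparations kept for RNA integrity, and the sources do not say which libraries came from the same mouse. The labels give an orthotopic MMTV-BO1 tumor, the stated design a subcutaneous one, and the methods a subcutaneous GFP-labeled PyMT-BO1 line whose GFP+ cells were removed.

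Matricellular proteins are secreted into the extracellular matrix but, unlike collagens, act less as scaffold than as regulators of how cells attach to and sense it. Most are low in resting adult tissue and rise in wounds, fibrosis and tumor stroma, where fibroblasts are a main source. Fibronectin is a structural glycoprotein that cells assemble into fibrils through integrin receptors, and it also binds several matricellular proteins.

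The start regions of 5 of the genes are shown as reference, 4 of genes that were higher in CD45- cells and that of *Tgfbi*, which was lower. Each is the 250 bases before the start in RefSeq on GRCm38.p6, read 5′ to 3′ on the gene's strand, with matches to 6 searched motifs in capitals. The motifs, searched on both strands with overlaps allowed, were TATAAA (bound by TBP), GGGCGG (bound by Sp1 and its relatives), CCAAT (bound by NF-Y), GGAATG (TEAD), TGACTCA (AP-1) and GAGGAAGT (PU.1).
*Postn*, chr3:54360857-54361106, plus strand: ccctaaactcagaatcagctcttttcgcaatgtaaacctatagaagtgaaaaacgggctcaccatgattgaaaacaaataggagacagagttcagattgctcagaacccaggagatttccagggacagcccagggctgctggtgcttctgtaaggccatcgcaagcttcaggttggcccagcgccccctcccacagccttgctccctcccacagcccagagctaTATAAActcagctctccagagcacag
*Tnc*, chr4:64047016-64047265, minus strand: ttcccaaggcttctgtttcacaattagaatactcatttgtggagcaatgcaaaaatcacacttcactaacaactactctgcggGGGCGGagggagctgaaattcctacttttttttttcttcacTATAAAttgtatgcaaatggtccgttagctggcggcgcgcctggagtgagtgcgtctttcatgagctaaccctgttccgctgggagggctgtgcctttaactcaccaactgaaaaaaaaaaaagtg
*Thbs2*, chr17:14694263-14694512, minus strand: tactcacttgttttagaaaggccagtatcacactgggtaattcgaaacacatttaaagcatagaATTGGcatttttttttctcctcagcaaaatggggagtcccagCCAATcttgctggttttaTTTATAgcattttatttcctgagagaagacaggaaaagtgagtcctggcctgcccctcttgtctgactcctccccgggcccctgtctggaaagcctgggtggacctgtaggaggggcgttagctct
*Sparc*, chr11:55420081-55420330, minus strand: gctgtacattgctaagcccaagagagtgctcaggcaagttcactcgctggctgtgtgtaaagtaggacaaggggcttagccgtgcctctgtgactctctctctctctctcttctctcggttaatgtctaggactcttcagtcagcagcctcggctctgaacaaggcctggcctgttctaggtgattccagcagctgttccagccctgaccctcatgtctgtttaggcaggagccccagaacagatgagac
*Tgfbi*, chr13:56609336-56609585, plus strand: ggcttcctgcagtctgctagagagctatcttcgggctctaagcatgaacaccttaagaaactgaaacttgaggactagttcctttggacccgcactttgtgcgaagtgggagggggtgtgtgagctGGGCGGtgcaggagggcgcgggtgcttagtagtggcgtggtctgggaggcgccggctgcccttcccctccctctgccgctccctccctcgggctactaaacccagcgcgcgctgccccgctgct
The reference held this window for 7 of the 10 genes. Of these, *Postn*, *Tnc* and *Thbs2* hold the TBP letters, as do 12.4% of 32851 RefSeq promoters of the same length. *Tnc*, *Thbs3* and *Tgfbi* hold the Sp1 letters (32.7% of all promoters) and *Thbs2* and *Thbs3* the NF-Y letters (33.8%). *Tnxb* holds the AP-1 letters (4.46%), and none of the 7 holds the TEAD (12.6%) or PU.1 letters (2.44%) in this window. These are matches of letters and not sites.

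Depth ran from 16594228 to 26784003 counted reads a library, with a median of 18977040. Levels are given as CPM, the reads of a gene per 1000000 counted reads of its library after scaling by TMM factors. The sort is visible in the markers, though not cleanly in every library. *Ptprc* lay between 465 and 1691 CPM in the CD45+ and between 2.40 and 337 CPM in the CD45- libraries, and the summed CPM of 6 leukocyte markers between 11019 and 13299 against 195 and 6609. The CPM of 6 fibroblast markers summed to between 4222 and 57741 CPM in the CD45- and to between 57.9 and 209 CPM in the CD45+ libraries. Markers of luminal epithelium, the type of the tumor cells, summed to 33.2 to 2071 CPM in the CD45- and 129 to 470 CPM in the CD45+ libraries. Their median was 711 CPM in Osx+ CD45- and 1192 CPM in Osx- CD45- cells. Platelet markers summed to 9.62 to 674 CPM in the CD45- and 263 to 1608 CPM in the CD45+ libraries. The part of such cells in the levels below was not tested. *Sp7* itself was at 0 in all 4 Osx+ CD45- and all 6 Osx+ CD45+ libraries, and had counts in both Osx- populations, at levels not given here. The 5 osteoblast markers, *Sp7* among them, summed to at most 3.81 CPM in Osx- CD45+ and 67.8 CPM in Osx- CD45- libraries. The paper, by PCR in another tumor (B16-F10 melanoma), detected *Sp7* in sorted TdTomato+ cells and not in TdTomato- ones. It did not detect *Sp7* by PCR in mature T cells, dendritic cells or macrophages of naive mice. Of the CD45- libraries, Osx- CD45- wild type replicate 3 had the most leukocyte marker RNA (6609 CPM), followed by Osx+ CD45- Cdh2-cKO replicate 1 (4424 CPM), and Osx- CD45+ wild type replicate 2 had 3205 CPM of 4 B cell markers against at most 21.4 CPM in every other library. Values without the first and the last of these libraries, called here both libraries that stand apart, or without all 3, stand beside the results below. The targeted gene was not lower in the CD45- libraries that carry its label. *Cdh2* was at 16.8 and 12.5 CPM in the Osx+ CD45- libraries labelled Cdh2-cKO and at 8.95 and 4.89 CPM in the wild type ones. In Osx- CD45- cells, sorted as lacking the reporter signal of Cre, it was at 13.1, 19.1 and 14.6 CPM against 6.17, 7.47 and 4.51 CPM. Counts per gene do not show which part of *Cdh2* is deleted. These libraries are therefore called the libraries labelled Cdh2-cKO throughout.

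The first question was how the genes divide between CD45- and CD45+ stroma. Of the 10 genes, 7 were higher in CD45- cells, *Postn*, *Tnc*, *Tnxb*, *Sparc*, *Sparcl1*, *Thbs2* and *Thbs3*, by log2 fold changes of 5.56 to 7.50. *Tgfbi* was lower, and *Fn1* and *Thbs1* were not called. At an adjusted p of at most 0.05 the same test called 63.3% of all genes tested, 32.1% higher and 31.2% lower, so a call alone is common here and the sizes say more. A log2 fold change of at least 2 with such a p was reached upward by 16.2% of the genes tested and by these 7, and one of at most -2 by 8.5% and by *Tgfbi*. The median of the 10 genes was 6.47 against -0.03 over all genes. The 7 log2 fold changes ran from 5.81 to 7.70 without Osx- CD45- wild type replicate 3 and Osx- CD45+ wild type replicate 2, and from 5.93 to 7.78 without all 3 libraries named above. In the 7 genes every one of the 10 CD45- libraries lay above every one of the 12 CD45+ libraries, as in 11.3% of all genes, and no member had the reverse pattern, which 3.28% of all genes showed. *Tnxb* is counted in these 7 and in the median. It passed the filter on low counts through the CD45- libraries alone, at no more than 0.585 CPM in the CD45+ ones. Its call and its lack of overlap therefore add no support. In bulk RNA fewer cells of a type and less RNA per cell cannot be told apart.

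**Figure D1:**
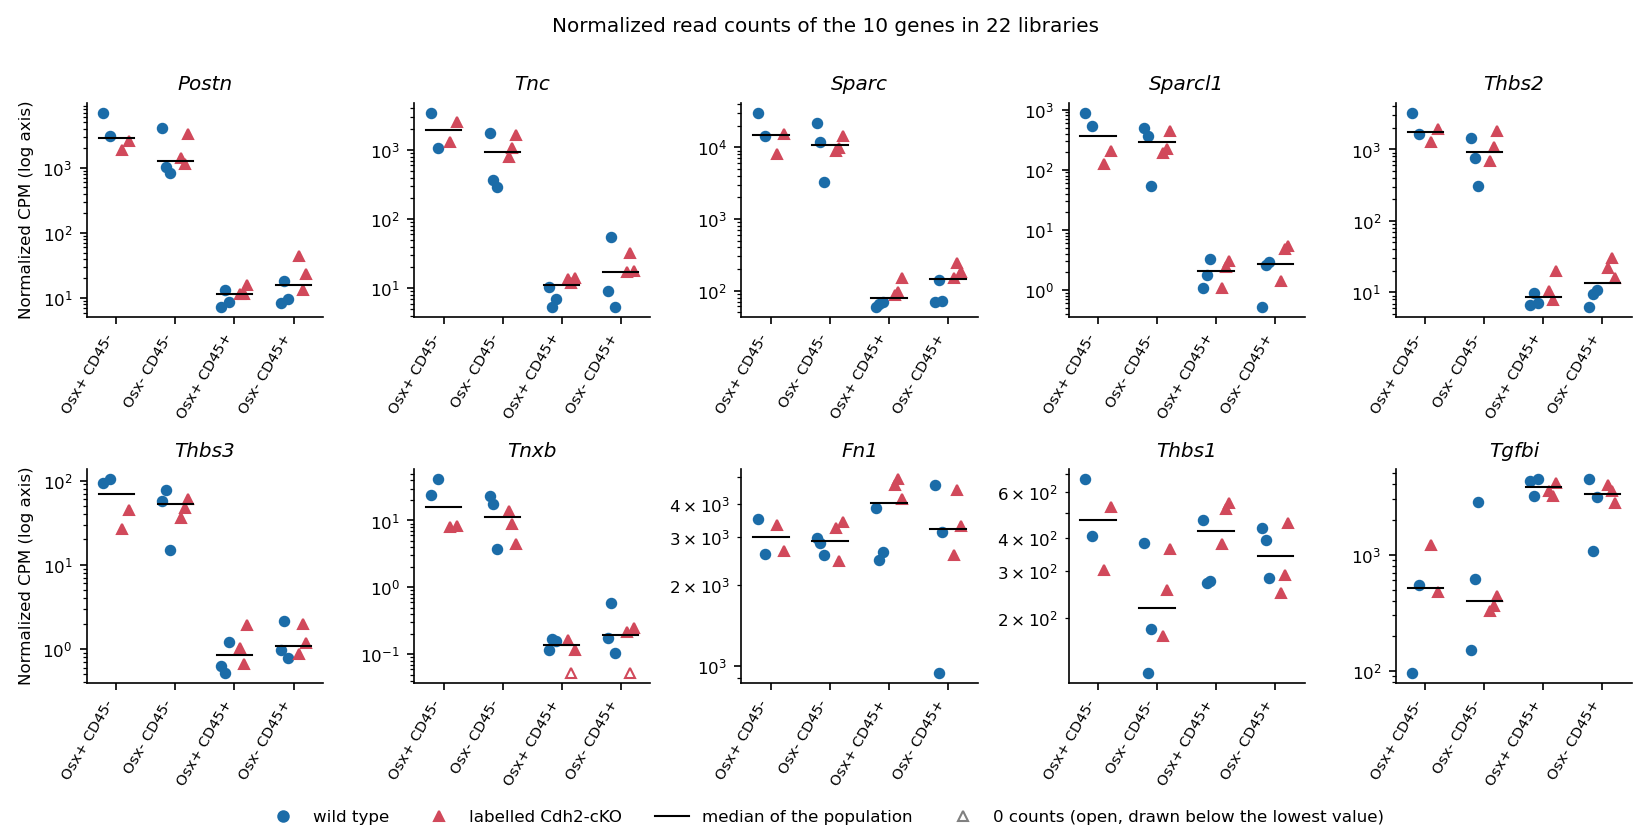
Normalized CPM on log axes in the 22 libraries, 1 panel a gene, with a point a library and a line at each population's median; open triangles are libraries at 0 counts. For 7 genes the CD45- and CD45+ libraries form separate levels by CD45, *Fn1* and *Thbs1* overlap, and *Tgfbi* runs the other way.

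*Sparc* encodes a collagen-binding glycoprotein that takes part in collagen fibril assembly, and it was the most abundant of the 10 in CD45- cells. Its level was 30672 and 14283 CPM in the wild type Osx+ CD45- libraries and 8207 and 15350 CPM in those labelled Cdh2-cKO. In Osx- CD45- cells it was 21783, 11726 and 3309 CPM in the wild type and 8995, 9725 and 14588 CPM in the libraries labelled Cdh2-cKO. The lowest of these, Osx- CD45- wild type replicate 3, is the CD45- library with the most leukocyte marker RNA, and still lay 13.6 times above the highest CD45+ library. The CD45+ libraries ran from 59.0 to 243 CPM with a median of 90.9. The log2 fold change of CD45- over CD45+ was 7.02 (SE 0.333, edgeR quasi-likelihood test with Benjamini-Hochberg adjustment, adjusted p = 5.15e-11).

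*Sparc* alone took between 0.336% and 3.25% of all counted reads in the CD45- libraries. The 10 genes together took between 1.05% and 5.27% there and between 0.287% and 0.878% in the CD45+ libraries, where *Fn1* and *Tgfbi* made up most of it. *Sparcl1*, which shares the domain plan of *Sparc*, was far lower but divided the same way. It was at 895 and 531 CPM in the wild type and 124 and 204 CPM in the labelled Cdh2-cKO libraries of Osx+ CD45- cells. In Osx- CD45- cells it was at 504, 365 and 53.6 CPM in the wild type and 193, 223 and 443 CPM in the others, while no CD45+ library exceeded 5.37 CPM. Its log2 fold change was 7.04 (SE 0.452, edgeR adjusted p = 7.54e-10). Per base of transcript the ratio of *Sparc* to *Sparcl1* was 24.9 to 69.5 in the CD45- and 19.96 to 125 in the CD45+ libraries, so the 2 ranges overlap.

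**Figure D2:**
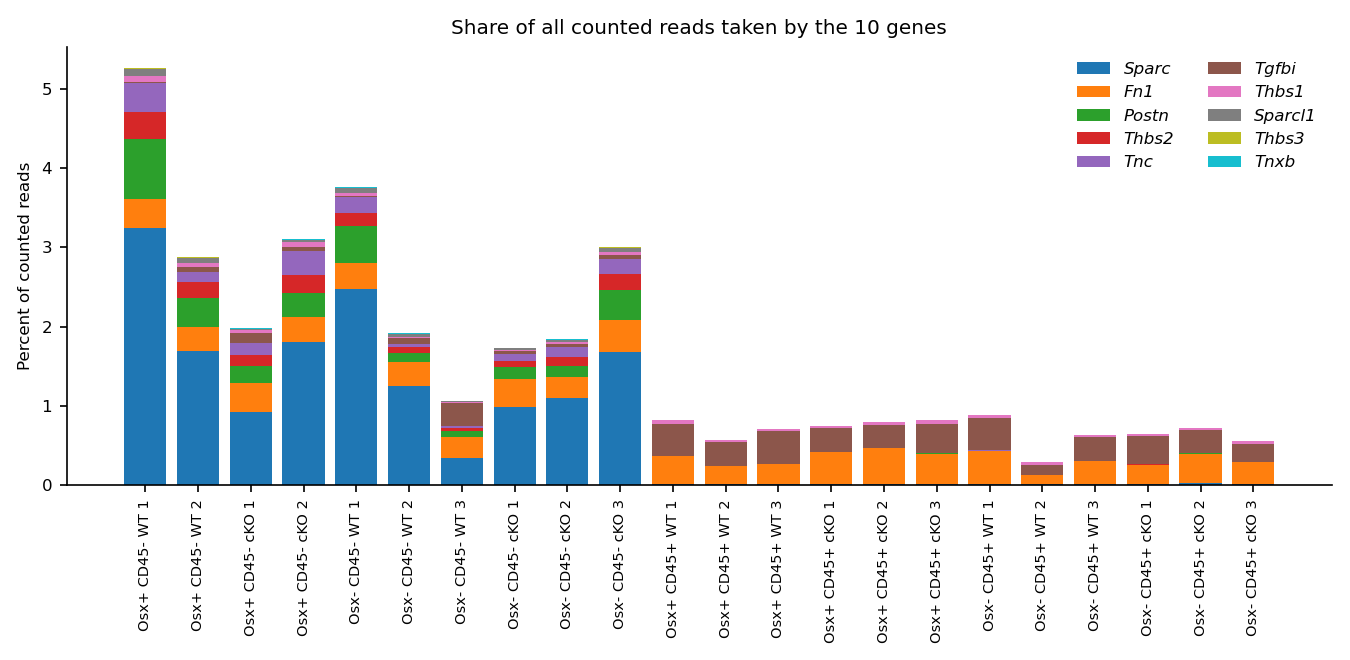
Percent of all counted reads (y axis, from 0) taken by each of the 10 genes, stacked, in each library (x axis, population, genotype label and replicate). *Sparc* is the largest part of every CD45- bar, down to 0.336% against 0.285% for *Tgfbi* in Osx- CD45- wild type replicate 3, and *Fn1* and *Tgfbi* fill the CD45+ bars.

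Periostin binds collagen I, fibronectin and tenascin C and is a marker of activated fibroblasts and periosteum. *Postn* was at 7068 and 3109 CPM in the wild type and 1870 and 2583 CPM in the labelled Cdh2-cKO Osx+ CD45- libraries. In Osx- CD45- cells it was at 4050, 1026 and 843 CPM and at 1438, 1147 and 3286 CPM. The CD45+ libraries lay between 7.30 and 43.8 CPM, so the lowest CD45- library was 19.2 times above the highest of them, the widest gap of the 7 genes. The log2 fold change was 7.50 (SE 0.389, edgeR adjusted p = 8.81e-11), 8.19 within the wild type and 6.80 within the libraries labelled Cdh2-cKO.

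Tenascin C is a large hexameric glycoprotein of embryonic, wound and tumor matrix. *Tnc* was at 3483 and 1079 CPM in the wild type and 1320 and 2516 CPM in the labelled Cdh2-cKO Osx+ CD45- libraries, and in Osx- CD45- cells at 1758, 372 and 292 CPM and at 791, 1080 and 1655 CPM. Among the CD45+ libraries it ran from 5.37 to 55.5 CPM, with the highest value in Osx- CD45+ wild type replicate 2, where the next library had 32.9 CPM. Its log2 fold change of 6.56 (SE 0.480, edgeR adjusted p = 3.72e-09) became 7.08 without that library and Osx- CD45- wild type replicate 3. Tenascin XB, in contrast, is known from loose connective tissue and collagen fibril spacing. *Tnxb* was the scarcest of the 10, at 69 to 1146 counts and 3.80 to 41.9 CPM in the CD45- libraries. In the CD45+ libraries it summed to 37 counts, with 9 of 12 libraries at 3 counts or fewer, the lowest number taken as present here, so it passed the filter on low counts through the CD45- libraries alone and its fold change of 6.39 (SE 0.445) rests on near-empty CD45+ libraries.

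Thrombospondins are calcium-binding glycoproteins that bind receptors such as CD47 and integrins. The first 2 are trimers that bind CD36 and inhibit angiogenesis, while thrombospondin 3 is a pentamer best known from cartilage and bone. The 3 genes did not move together. *Thbs2* was at 3286 and 1644 CPM in the wild type and 1255 and 1918 CPM in the labelled Cdh2-cKO Osx+ CD45- libraries, and in Osx- CD45- cells at 1456, 749 and 313 CPM and at 694, 1068 and 1786 CPM. No CD45+ library exceeded 29.9 CPM, and the log2 fold change was 6.88 (SE 0.319, edgeR adjusted p = 4.24e-11). *Thbs3*, the least abundant of the 3, ran from 14.9 to 105 CPM in the CD45- and from 0.514 to 2.13 CPM in the CD45+ libraries, with a log2 fold change of 5.56 (SE 0.316, edgeR adjusted p = 2.02e-10). The kit does not mark strand and 6.59% of the exon bases of *Thbs3* lie under *Mtx1* on the other strand, so reads in that stretch cannot be assigned to either gene.

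*Thbs1* was abundant in both compartments. In Osx+ CD45- cells it was at 670 and 409 CPM in the wild type and 303 and 525 CPM in the libraries labelled Cdh2-cKO, and in Osx- CD45- cells at 384, 124 and 183 CPM and at 172, 255 and 366 CPM. The CD45+ libraries covered 249 to 545 CPM with a median of 387, inside the range of the CD45- ones. Its log2 fold change was -0.14 (95% interval -0.59 to 0.31, edgeR adjusted p = 0.585), an interval that leaves out a change of 2-fold either way, and it was 0.03 without the 3 libraries named above. Per base of transcript *Thbs2* exceeded *Thbs1* by 1.75 to 6.20 times in every CD45- library, whereas the ratio was 0.0147 to 0.106 in the CD45+ libraries. Thus *Thbs1* was the leading thrombospondin of all 12 CD45+ libraries and *Thbs2* that of all 10 CD45- libraries.

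*Fn1* was the steadiest of the 10 in CD45- cells. It was at 3514 and 2609 CPM in the wild type and 3336 and 2671 CPM in the labelled Cdh2-cKO Osx+ CD45- libraries, and in Osx- CD45- cells at 2977, 2854 and 2580 CPM and at 3242, 2446 and 3410 CPM. The highest of these was 1.44 times the lowest, where *Postn* spanned 8.39 times and *Tgfbi* 29.5 times. The CD45+ libraries ran from 2465 to 4938 CPM apart from Osx- CD45+ wild type replicate 2 at 939 CPM. The log2 fold change was -0.21 (95% interval -0.65 to 0.23, edgeR adjusted p = 0.407), and -0.30 without that library and Osx- CD45- wild type replicate 3 (adjusted p = 0.0745). The counts do not separate splice forms of *Fn1*, such as those with the extra domains A and B.

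*Tgfbi* encodes a secreted protein, induced by TGF-beta, that binds integrins and collagens. Per base of transcript it was the most abundant of the 10 in both CD45+ populations. Without correction for length its medians were 3806 CPM in Osx+ CD45+ and 3305 CPM in Osx- CD45+ cells, and those of *Fn1* were 4000 and 3221 CPM. *Tgfbi* lay between 2763 and 4475 CPM in 11 of the 12 CD45+ libraries, and at 1075 CPM in Osx- CD45+ wild type replicate 2. In Osx+ CD45- cells it was at 95.3 and 552 CPM in the wild type and 1218 and 475 CPM in the libraries labelled Cdh2-cKO. In Osx- CD45- cells it was at 150, 621 and 2809 CPM and at 324, 361 and 437 CPM, so 2 CD45- libraries, at 1218 and 2809 CPM, lay within the CD45+ range, both of them the CD45- libraries with the most leukocyte marker RNA. The log2 fold change was -2.54 (SE 0.437, edgeR adjusted p = 7.59e-05) and -3.05 without the library at 1075 and the library at 2809 CPM.

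**Figure D3:**
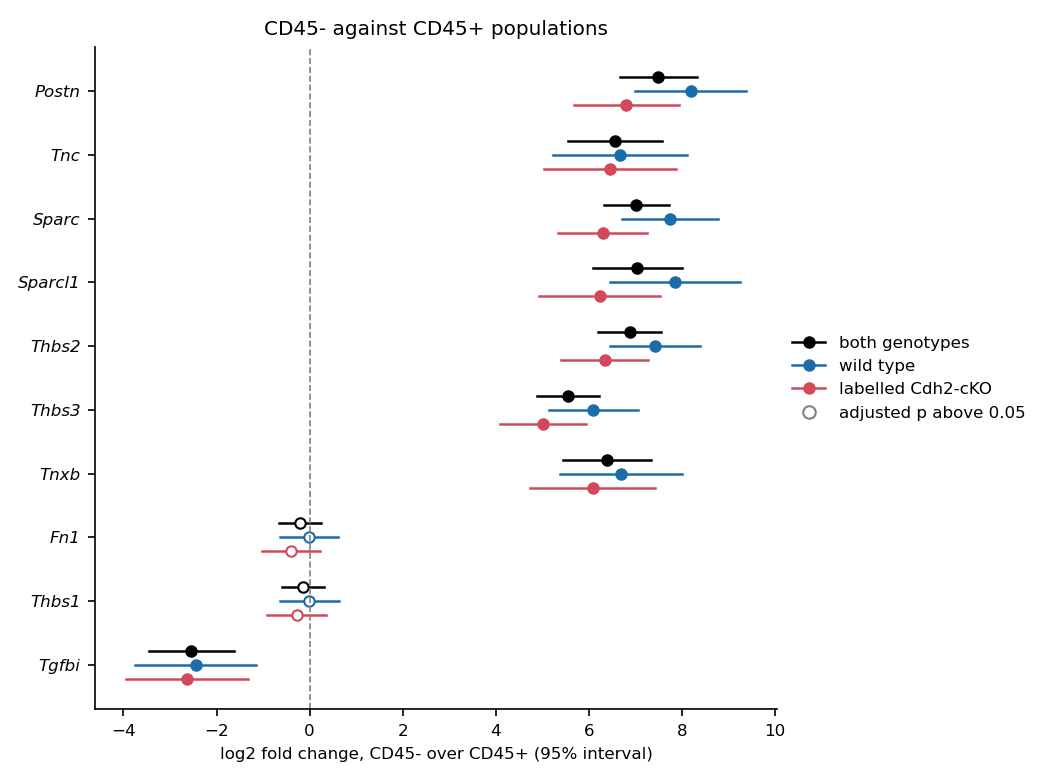
Log2 fold change of CD45- over CD45+ cells with its 95% interval (x axis) for each gene, in both genotypes together and in each alone; filled points have an adjusted p of at most 0.05. The 7 higher genes lie above 5, *Fn1* and *Thbs1* cover 0, and *Tgfbi* lies between -2.63 and -2.45.

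The level of *Tgfbi* within CD45- cells moved with the leukocyte RNA in the library. Its log2 CPM was set against the log2 of the summed CPM of 6 leukocyte markers over the 10 CD45- libraries. Pearson's r was 0.92 (permutation test, p = 3e-05, adjusted over 10 relations 3e-04) and Spearman's rho 0.94 (adjusted permutation p = 0.0025). The permutations treat the 10 libraries as exchangeable, although they differ in population and genotype label and some may share a mouse. These p-values are therefore too small if libraries depend on each other. Within the wild type r was 0.98 and within the libraries labelled Cdh2-cKO 0.90, with 5 libraries each. Without the 2 libraries of most leukocyte RNA r was 0.81. The 2 libraries with the least, wild type replicate 1 of each CD45- population at 215 and 195 CPM, were those with the least *Tgfbi*, at 95.3 and 150 CPM. Relative to *Ptprc*, *Tgfbi* was at 5.53 to 39.7 times in the CD45- and 0.636 to 9.12 times in the CD45+ libraries. The part of leukocyte RNA in these levels was not tested.

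Of the other 9 genes none passed against the leukocyte sum. *Sparcl1* and *Sparc* came closest, with r = -0.73 and -0.71 (both adjusted permutation p = 0.0579), and without the 2 libraries of most leukocyte RNA r was -0.31 and -0.33. *Fn1* (r = -0.35) and *Thbs1* (r = -0.24), which are abundant in both compartments, did not pass over the 10 libraries either. These pooled values hide a split by genotype label, with 5 libraries each and no test. In the wild type r was -0.83 for *Fn1*, -0.60 for *Thbs1*, -0.93 for *Sparc* and -0.84 for *Sparcl1*. In the libraries labelled Cdh2-cKO it was 0.16, 0.51, -0.08 and -0.63. Across the same 10 libraries, log2 CPM of the 7 genes correlated with each other at r of 0.25 to 0.95 (median 0.77 over 21 pairs), and *Tgfbi* correlated with each of them at -0.90 to -0.59. These libraries differ in leukocyte and fibroblast RNA alike, and the pair values are a description.

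**Figure D4:**
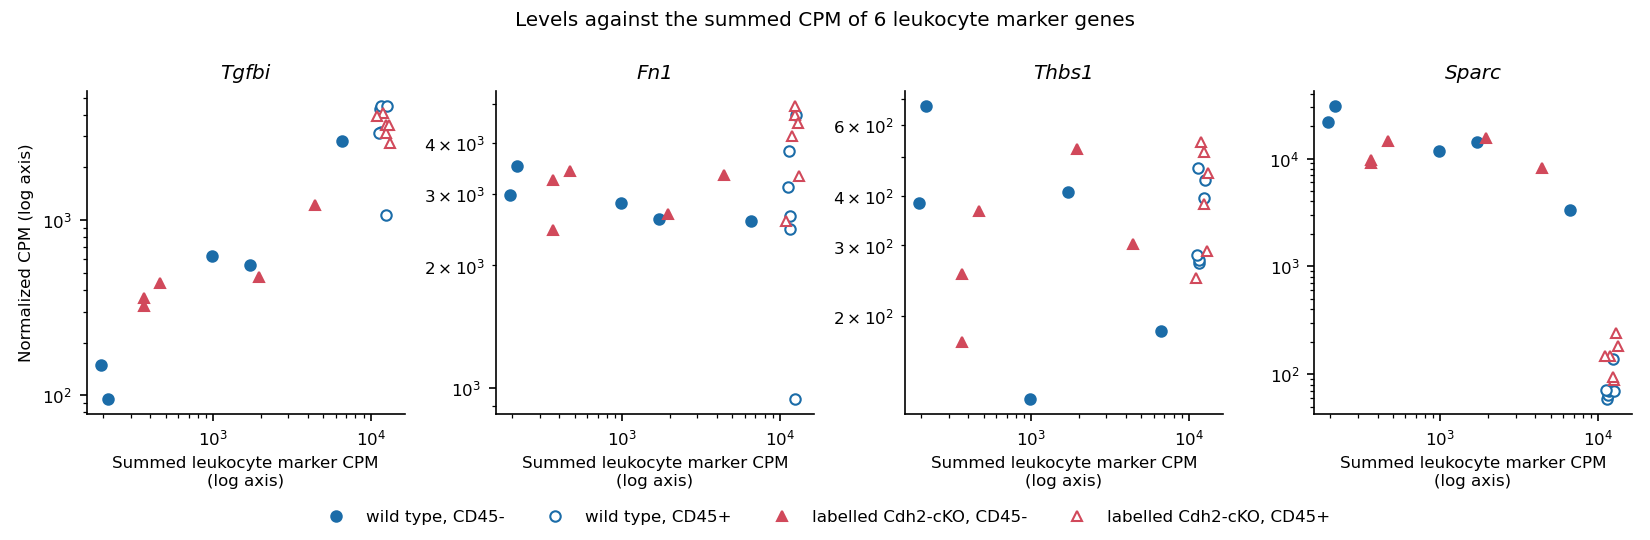
Normalized CPM of *Tgfbi*, *Fn1*, *Thbs1* and *Sparc* (y axes, log) against the summed CPM of 6 leukocyte markers (x axes, log); filled points are CD45- and open points CD45+ libraries. Among the CD45- points *Tgfbi* is higher where the leukocyte sum is higher, whereas *Fn1* stays between 2446 and 3514 CPM in them.

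By length-corrected level (RPKM) the order in Osx+ CD45- cells was *Sparc* (median 4401), *Postn* (363), *Thbs2* (301), *Fn1* (257), *Tnc* (247), *Tgfbi* (192), *Sparcl1* (118), *Thbs1* (76.9), *Thbs3* (14.2) and *Tnxb* (1.32). *Sparc* was above *Postn*, *Postn* above *Thbs2*, and *Thbs1*, *Thbs3* and *Tnxb* fell in that order in all 4 libraries, while the neighbours from *Thbs2* to *Thbs1* changed places between libraries. In Osx- CD45- cells *Sparc* led again (median 3186), followed by *Fn1* (250), and the order from *Fn1* to *Thbs1* was not the same in all 6 libraries. In Osx+ CD45+ cells *Tgfbi* (1421), *Fn1* (342), *Thbs1* (70.0) and *Sparc* (23.4) kept this order in all 6 libraries, and no other member had a median above 1.48. In Osx- CD45+ cells the first 4 were the same genes, at 1234, 276, 56.3 and 42.5, and *Thbs1* was not above *Sparc* in every library.

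Both genotypes gave the compartment difference separately. The same 7 genes were higher and *Tgfbi* lower in the wild type, where 26.4% of genes tested were called higher and 24.4% lower (50.8% in all), and in the libraries labelled Cdh2-cKO, where 27.8% were higher and 22.6% lower (50.5%). No member was called by edgeR, voom or DESeq2 for a difference of the compartment contrast between the genotypes (0% of all genes by edgeR). *Sparc* came closest, its log2 fold change being 7.74 in the wild type and 6.30 in the libraries labelled Cdh2-cKO, a difference of -1.44 (95% interval -2.58 to -0.31, edgeR adjusted p = 0.602).

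The second question was whether Osx+ CD45- cells, those marked by the Osx-cre lineage, differ in these genes from other CD45- stroma. In this contrast the 4 pairs of libraries with the same genotype and replicate number had positively correlated deviations from their group means (r of 0.11 to 0.59). With 2 libraries in each Osx+ CD45- group the deviations mirror each other, so these are not 4 independent signs of a pairing. Wild type Osx+ replicate 2 also correlated more with Osx- replicate 3 (r = 0.43) than with Osx- replicate 2 (r = 0.22). Values with the replicate number as a block are given as well. Without the block edgeR called no member and 2.04% of all genes, 0.786% higher and 1.26% lower. Of its calls 38.4% were higher, which became 59.4% with RLE in place of TMM factors. Voom called no member and DESeq2 called 1, and both called more of all genes than edgeR did. With the block edgeR called 1 member and 0.859% of all genes. The nearest was *Thbs1*, whose log2 fold change of Osx+ over Osx- was 0.94 (SE 0.312, 95% interval 0.28 to 1.60, edgeR adjusted p = 0.114). It was called with the block, at 1.02 (edgeR adjusted p = 0.0355), with DESeq2, at 1.01 (adjusted p = 0.0414), and without Osx- CD45- wild type replicate 1, at 1.23 (edgeR adjusted p = 0.0327). *Thbs2* followed at 0.99 (SE 0.380, edgeR adjusted p = 0.165), then *Tnc* at 1.10 (SE 0.579, adjusted p = 0.314) and *Postn* at 0.78 (SE 0.452, adjusted p = 0.366). No member was called by edgeR without both libraries that stand apart or without all 3, where *Thbs1* was 0.87 and 1.13 and *Thbs2* 0.79 and 1.02. In none of the 10 genes did the 4 Osx+ libraries stay clear of the 6 Osx- libraries, as 5.1% of all genes did.

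Within the wild type no member was called by edgeR, voom or DESeq2 (0.0266% of all genes were by edgeR). In *Tnxb*, *Sparcl1*, *Thbs1*, *Thbs2* and *Thbs3* both Osx+ libraries lay above all 3 Osx- libraries, a pattern that 13.1% of all genes showed. *Thbs2* was 1.55 (SE 0.538, edgeR adjusted p = 0.184), *Postn* 1.37 (SE 0.638, adjusted p = 0.294) and *Thbs1* 1.23 (SE 0.441, adjusted p = 0.201). These 3 were called, at 2.22, 2.45 and 1.82, when Osx- CD45- wild type replicate 1 was left out. Of all single omissions in this contrast, that one also gave the most calls over all genes, so these calls are not particular to the 3 genes. The omitted library was the richest of the 3 Osx- libraries in fibroblast marker RNA, at 32725 CPM against 9495 and 4222. The 2 Osx+ libraries had 57741 and 29903 CPM of the same markers. Without both libraries that stand apart *Thbs2* was 1.16 and *Thbs1* 1.09, and none of the 3 genes was called. The part of fibroblast content in these differences was not tested.

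Within the libraries labelled Cdh2-cKO the same contrast gave *Thbs1* 0.65, *Tnc* 0.71, *Thbs2* 0.42 and *Postn* 0.19 on the log2 scale. No member was called by any of the 3 tools (0.02% of all genes were called by edgeR). Only in *Tgfbi* did both Osx+ libraries lie above all 3 Osx- libraries, as in 17.6% of all genes. *Tgfbi* was 1.18 (SE 0.826, edgeR adjusted p = 0.605) here and -1.88 (SE 0.899, adjusted p = 0.300) in the wild type, and the test of that difference gave 3.06 (95% interval 0.50 to 5.62, edgeR adjusted p = 0.337; 0.00666% of all genes were called, and 0 genes with the block). Without both libraries that stand apart that difference was 1.43 and the wild type value -0.25, and without all 3 the difference was 0.59. The leukocyte marker sums moved alongside, at 4424 and 1943 CPM in the Osx+ against 362 to 464 CPM in the Osx- libraries labelled Cdh2-cKO, and at 215 and 1706 against 195, 987 and 6609 CPM in the wild type.

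**Figure D5:**
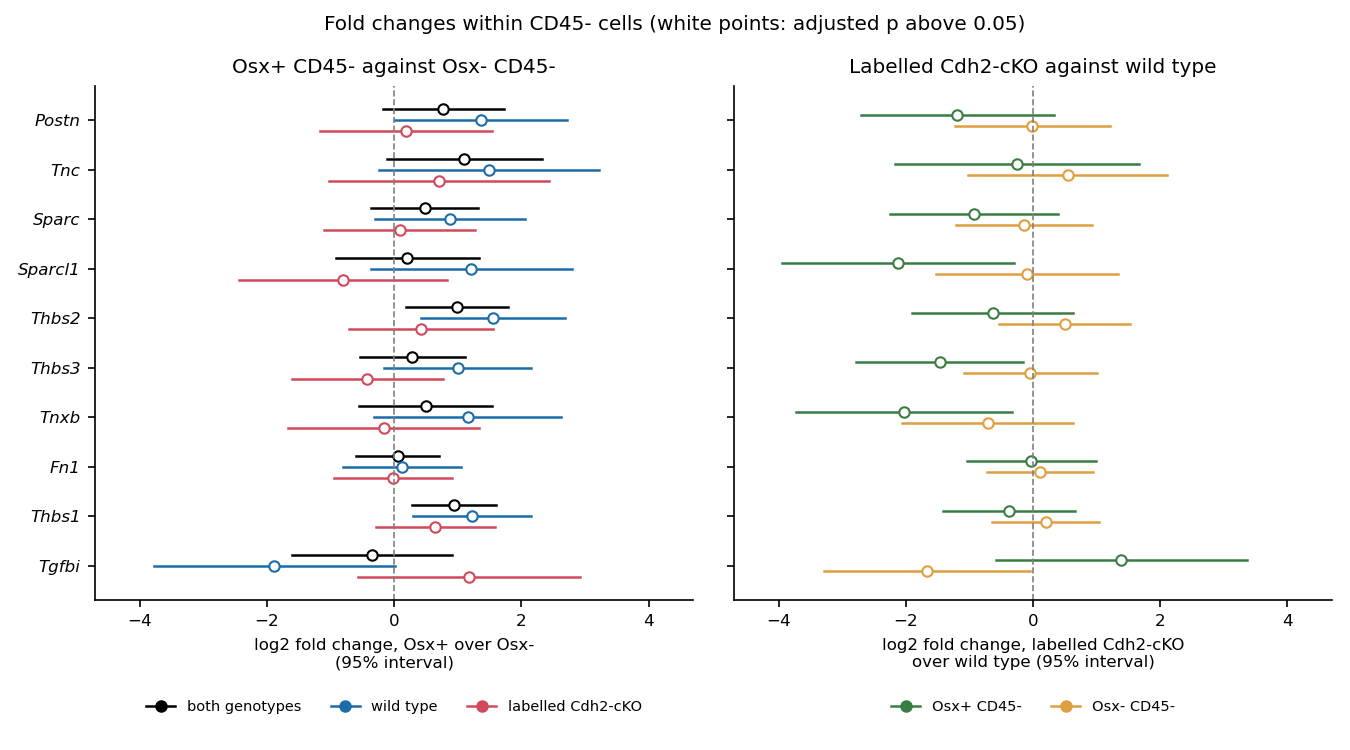
Log2 fold changes with 95% intervals within CD45- cells (x axes), of Osx+ over Osx- cells on the left and of libraries labelled Cdh2-cKO over wild type on the right; every point is white because no adjusted p was at or below 0.05 in the fit without the replicate block. The widest spread is that of *Tgfbi*, from -1.88 to 1.18 on the left.

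Among CD45+ cells no member was called between Osx+ and Osx- cells by edgeR, DESeq2 or voom. Of all genes tested edgeR called 1 (0.00666%). *Tnc* had the largest change, -1.20 on the log2 scale (SE 0.539, 95% interval -2.33 to -0.06, edgeR adjusted p = 1), and its highest CD45+ value was that of Osx- CD45+ wild type replicate 2. It was -0.36 without that library and Osx- CD45- wild type replicate 3. The intervals were narrow for *Fn1* (-0.37 to 0.81) and *Thbs1* (-0.40 to 0.80), so a 2-fold change of either is outside them. In no member did the 6 Osx+ CD45+ libraries stay clear of the 6 Osx- CD45+ libraries (0.0799% of all genes did).

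The labels also imply a comparison of the libraries labelled Cdh2-cKO with the wild type, which reuses the libraries of the contrasts above. Its direction is uncertain because *Cdh2* was not lower in the CD45- libraries labelled Cdh2-cKO. Neither edgeR, voom nor DESeq2 called a member in any of the 4 populations. Of all genes edgeR called 0.00666% in Osx+ CD45- cells and 0% in each of the other 3. In Osx+ CD45- cells, 2 libraries against 2, *Sparcl1* was -2.12 on the log2 scale (SE 0.866, edgeR adjusted p = 0.421), *Tnxb* was -2.03 (SE 0.803, adjusted p = 0.412) and *Thbs3* -1.47 (SE 0.621, adjusted p = 0.433). In these 3 and in *Postn* both libraries labelled Cdh2-cKO lay below both wild type ones, as in 20.2% of all genes. The marker sums of these libraries were apart as well, with 13160 and 26857 CPM of fibroblast markers against 57741 and 29903 CPM in the wild type, and 4424 and 1943 CPM of leukocyte markers against 215 and 1706 CPM. Their part in these values was not tested. Without all 3 libraries named above, which leaves 1 library labelled Cdh2-cKO here, *Sparcl1* was -1.81, *Tnxb* -2.02 and *Thbs3* -1.15. In Osx- CD45- cells *Tgfbi* was -1.67 (SE 0.769, edgeR adjusted p = 0.504), with the wild type value of 2809 CPM in the library of most leukocyte RNA, and -0.04 without that library and Osx- CD45+ wild type replicate 2. No member separated the 3 libraries of each label (9.47% of all genes did). In Osx+ CD45+ cells *Fn1* was at 4165, 4693 and 4938 CPM in the libraries labelled Cdh2-cKO and at 2465, 2654 and 3835 CPM in the wild type, without overlap, as were *Tnc* and *Sparc* (6.81% of all genes were higher in this way). The log2 fold change of *Fn1* there was 0.62 (95% interval -0.21 to 1.46, edgeR adjusted p = 1). In Osx- CD45+ cells *Sparc* and *Thbs2* were higher without overlap in the libraries labelled Cdh2-cKO, as were 5.27% of all genes. Their log2 fold changes there were 1.04 and 1.34, and that of *Sparc* was 1.44 without both libraries that stand apart, none of them called.

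Other matricellular genes were looked at in the same contrast of CD45- over CD45+ cells. Of 17 listed, 14 were tested, 11 were higher, 1 was lower and 2 were not called, with a median log2 fold change of 6.41, where 32.1% of all genes were higher and 31.2% lower. Genes of this list that passed the filter on low counts through the CD45- libraries alone were not set apart. The count of higher genes and the median therefore add no support. The largest were *Smoc2* (7.83, a SPARC-related calcium-binding protein), *Tnn* (7.68, tenascin N), *Fstl1* (7.27, another SPARC relative), *Ccn3* (6.84) and *Ccn2* (6.80, connective tissue growth factor). *Fstl1* was the most abundant of these 5, at 641 to 5380 CPM in the CD45- and 7.76 to 30.9 CPM in the CD45+ libraries. The gene that was lower was *Spp1* (osteopontin), at -1.32 (SE 0.324, edgeR adjusted p = 0.00186), with 5309 to 11832 CPM in the CD45- and 4595 to 55677 CPM in the CD45+ libraries. It was called in the libraries labelled Cdh2-cKO (-1.76, edgeR adjusted p = 0.00465) and not in the wild type (-0.87, adjusted p = 0.117), a difference that is not among the tests given here. No gene of this list was called between Osx+ and Osx- cells or between the genotypes.

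Receptors and surface partners of these proteins went both ways. Of 18 listed, 17 were tested, 8 were higher in CD45- cells, 5 were lower and 4 were not called, with a median log2 fold change of 0.47. These shares are not far from the 32.1% higher and 31.2% lower of all genes. Higher were *Sdc1* (3.77, syndecan 1, a heparan sulfate proteoglycan), *Itga3* (3.43), *Itgb3* (2.96), *Itgb8* (1.42) and *Itga5* (1.31), the last being the alpha chain of the classical fibronectin receptor. Lower were *Stab1* (-2.45, stabilin 1, a scavenger receptor that takes up SPARC), *Itga4* (-2.32, a leukocyte integrin chain that binds fibronectin), *Cd36* (-1.95, a thrombospondin receptor), *Sdc4* (-0.57) and *Itga9* (-0.55). *Stab1* ran from 18.9 to 328 CPM in the CD45- and from 84.3 to 626 CPM in the CD45+ libraries. No receptor was called between Osx+ and Osx- cells or between the genotypes.

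The genes whose log2 CPM followed each member most closely over all 22 libraries were *Col5a2* for *Postn* (Pearson's r = 0.997), *Bgn* for *Sparc* (0.997), *Col6a1* for *Thbs2* (0.996), *Igsf3* for *Tnc* (0.990), *Prss23* for *Sparcl1* (0.990), *Mxra8* for *Thbs3* (0.988), *Entpd2* for *Tnxb* (0.981), *Dpep2* for *Tgfbi* (0.985), *2900026A02Rik* for *Fn1* (0.961) and *Zdhhc5* for *Thbs1* (0.861). For the 7 genes these values mostly restate the split by CD45. Within the 10 CD45- libraries the nearest were *Tbc1d2b* for *Postn* (0.991), *Mical2* for *Tnc* (0.992), *Pdgfrb* for *Thbs2* (0.996), *Bmp1* for *Sparc* (0.985), *Grem1* for *Fn1* (0.920), *Nradd* for *Thbs1* (0.974) and *Sh3bp2* for *Tgfbi* (0.987). *Bmp1*, the procollagen C-proteinase, and *Pdgfrb*, the receptor of pericytes and fibroblasts, thus tracked *Sparc* and *Thbs2* across libraries that share depth and cell content. These are the largest of 15018 values each and carry no test.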

How the data were processed

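RNA from 22 libraries of sorted tumor stroma was made into amplified cDNA with an unstranded SMARTer kit. The authors aligned the reads with STAR 2.0.4b to GRCm38 (Ensembl 76) and counted uniquely aligned, unambiguous reads per gene with featureCounts. The count columns as deposited hold raw whole numbers, and the CPM and RPKM columns, made by the authors from the counts and gene lengths, were used only as a check (relative deviation of at most 5.2e-14). Groups and replicates came from the labels. Gene symbols came from GENCODE M21, and 40340 of 41388 gene IDs matched.

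In R 4.3.3, 355 rRNA genes were left out, and so was any gene that did not pass 1 CPM in 2 or more libraries. edgeR 4.0.16 fitted TMM-scaled counts of 15018 genes with 1 mean a population and genotype, and its quasi-likelihood test gave all contrasts. A gene was called where the p adjusted over all genes by Benjamini-Hochberg was 0.05 or less, with no fold threshold. The fit was tested on simulated data. Standard errors were derived from the test, and intervals are 95%. Normalized RPKM divide CPM by the deposited gene length. Log2 CPM for likeness used a prior count of 2. Correlations used 100000 permutations in SciPy 1.17.1. The lowest count taken as present was 3, and counting limits cover counting error only.

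Replicates of a population differed by 54.9 to 451.9 times the counting variance, so none were duplicates. The alternatives were limma 3.58.1 with voomWithQualityWeights, the test of the study's methods, DESeq2 1.42.0, RLE factors, no low-count filter, a fold threshold, a replicate block, each genotype fitted alone, each library left out, both libraries that stand apart left out, and, added after seeing the data, 3 libraries left out. Between Osx+ and Osx- CD45- cells all 4 pairs with the same genotype and replicate number had correlated deviations from the group means (r of 0.11 to 0.59). With 2 libraries in each Osx+ group these values are not independent, and the labels state no pairing. The block therefore stands beside those results as an alternative only. DESeq2 gave no adjusted p for 101 genes. The members and lists were chosen with earlier results of these data known. Beyond the 10 members, *Cdh2* and *Ptprc*, the genes named are the listed ones called between compartments with the 5 largest changes each way, those called in any other contrast, and each member's nearest gene; *Sp7* was named after its value was seen.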

Additional observations from a re-analysis of the deposited data

How the results depend on the processing

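The calls of the 7 genes higher in CD45- cells and of *Tgfbi* lower held under all 30 alternatives for both genotypes together, with log2 fold changes for *Postn* of 7.23 to 7.78 and for *Tgfbi* of -3.21 to -2.35. No member's call was lost or turned in direction under any alternative, and 7 values of members became calls. Among all genes, a log2 fold threshold of 2 lowered the compartment calls to 3704 (3585 in the wild type and 3577 in the libraries labelled Cdh2-cKO).

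Between Osx+ and Osx- CD45- cells the count of 307 genes became 622 with voom, 982 with DESeq2, 92 without the filter, 43 with the fold threshold, 1382 without both libraries that stand apart and 729 without all 3 libraries, and ran from 20 (without Osx+ CD45- Cdh2-cKO replicate 1) to 806 (without Osx- CD45- wild type replicate 3) when 1 library was left out. DESeq2 called 1 member, *Thbs1*, as did leaving out Osx- CD45- wild type replicate 1 (range 0 to 1). In the other comparisons the replicate numbers were not taken as a pairing, with at least 1 same-numbered correlation below 0.1 in each. With the replicate block the count was 129, with *Thbs1* as 1 member called (1.02), the interaction of Osx with genotype had 0 genes, and no other call of a member changed.

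In the wild type alone the 4 genes became 1 with voom, 500 with DESeq2, 33 with RLE factors, 17 without the filter, 0 with 11 libraries fitted alone, 60 without both libraries and 67 without 3, and 4 to 518 with 1 left out, the most without Osx- CD45- wild type replicate 1, which also gave 3 members (range 0 to 3). In the libraries labelled Cdh2-cKO the 3 genes became 361 with voom, 626 with DESeq2, 62 without the filter, 1149 with 11 libraries alone (1 member, *Tgfbi*, at 1.27), 774 without both and 135 without 3, and 1 to 509 with 1 left out. Within CD45+ cells DESeq2 called 6.

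For the genotypes in Osx+ CD45- cells the 1 gene became 0 with voom, 134 with DESeq2, 78 without both and 0 without 3, and 0 to 87 with 1 left out. DESeq2 called 522 in Osx- CD45- (0 to 563 with 1 left out), 1 in Osx+ CD45+ and 26 in Osx- CD45+ cells. For the interaction of compartment and genotype DESeq2 called 30 (0 to 15 with edgeR and 1 left out). For that of Osx and genotype the 1 gene became 0 with voom, 558 with DESeq2, 2 with RLE factors, 101 without the filter, 2 without both and 0 without 3, and 0 to 628 with 1 left out. The cause of these shifts was not tested. With 2 or 3 libraries a group the contrasts within CD45- cells are imprecise, and of the 95% intervals of the members there only those of *Fn1* ever lie within a 2-fold change.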
